A study of Mus musculus with 9 samples.

Results

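The levels described here are those of freshly dissected mouse Reissner's membrane, measured on the 3 arrays labelled as taken at 0 h, out of 9 arrays in all. The other 6 arrays held tissue incubated for 24 h, with or without dexamethasone, and are not compared here. The labels describe the animals as adult mice and name no strain, genotype or sex. Membranes were freed by hand from the cochlea, RNA was extracted at once, and membranes were pooled to obtain enough material. The design text says that the pooled RNA of a biological sample was put on 3 chips, so the spread between arrays A, B and C may be technical and does not give the spread between animals.

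Reissner's membrane is the thin partition between the scala media, filled with potassium-rich endolymph, and the scala vestibuli, filled with sodium-rich perilymph. It has an epithelial layer on the endolymph side and a flat mesothelium-like layer on the perilymph side, joined by a basement membrane. Its epithelium is known for absorbing sodium from endolymph through the epithelial sodium channel ENaC, a step that adrenal steroids regulate in other sodium-absorbing epithelia. Transport across such a layer needs tight junctions, a sodium pump, ion channels and carriers, which are therefore described by class below.

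Each value is an array signal on a linear scale, scaled by the authors so that each array has the same average. Signals are given for arrays A, B and C in that order, or as the mean ± SD over the 3 arrays. A gene with several probe sets is represented by the one with the highest fresh mean, and rank 1 is the gene with the highest mean. Probe sets hybridise with different strength, so the rank orders signals and does not order the numbers of transcripts between genes. A gene was counted as above the floor when all 3 arrays gave a signal of 200 or more. On that rule 9609 of 18193 genes, 52.8%, were above the floor, 7916 were below it on all 3 arrays, and 668 were above it on 1 or 2 arrays. Counts of list members above the floor are to be read beside that 52.8%. A mean of 1000 or more was reached by 4786 genes, 26.3% of all, and a mean of 5000 or more by 857, 4.71%.

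The floor was checked against genes not expected in the membrane. Of 78 chemosensory receptors, the receptors for smell, taste and pheromones, 0 were above the floor, and their highest mean was 83.3. Of 58 genes restricted to other organs, 1 was above it. That gene was Pomc, the precursor of pituitary hormones, at 353 ± 19.4 on a probe set whose name ends in _s_at or _x_at, which marks probes shared by several transcripts. Its other probe set was at 151. The share above the floor was 70.0% among genes with several probe sets and 36.0% among genes with 1.

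The 40 highest signals came from genes of varied kinds, named here by example. Cndp2, a cytosolic dipeptidase, ranked first at 35198, 37310 and 38237. Akr1a1, an aldehyde reductase, gave 29589, 30603 and 31093, and the secreted chaperone clusterin, Clu, gave 29069, 30611 and 31548. Among the 40 highest were 6 cytosolic ribosomal protein genes, led by Rps29 at 28353 ± 1735 and Rpl41 at 24541 ± 1155, together with the elongation factor Eef1a1 at 27585 ± 1304. Uqcrb, a subunit of respiratory complex III, was at 30221 ± 1219, and the ferritin heavy chain Fth1 at 23593 ± 623. The long nuclear RNA Malat1 was at 23661 ± 610.1, and the cytoskeletal actins Actb and Actg1 at 23119 ± 677 and 24559 ± 1328. Probe sets shared by several globin genes name no single gene and are outside this ranking, though 3 of them had means of 26536, 25206 and 22153. Of the 40 highest genes, 38 were among the 40 highest on each of the 3 arrays. Array A gave the lowest of the 3 signals for 31 of the 40 and array C the highest for 26, although over all genes above the floor array A was lowest for 34.7% and array C highest for 35.6%. The files carry no flag for saturated probes, so whether the highest signals are compressed is not known.

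Several of the 40 highest encode proteins that act outside the cell. Rnase1, a secreted ribonuclease, was at 27222, 28137 and 29937 on a lone probe set. Ptgds, which makes prostaglandin D2 and also carries small lipids, was at 27025, 27786 and 28261. Crhbp, the secreted binding protein of corticotropin-releasing hormone, was at 26116, 27939 and 28965. Ttr, the thyroid hormone carrier of cerebrospinal fluid and plasma, was at 24340.1, 23311 and 25556, with all 4 of its probe sets above the floor. Apod, a lipid-binding apolipoprotein, was at 22351 ± 324, with its other probe set at 114, below the floor. Itih5, a hyaluronan-associated matrix protein, was at 19893 ± 441. Cnmd, chondromodulin, an inhibitor of vessel growth known from cartilage, was at 22270.4 ± 946. The small proteoglycan decorin, Dcn, was at 20348 ± 464, but only 1 of its 2 probe sets was above the floor. Lrpap1, the chaperone of the LDL receptor family, was at 23582 ± 681. Lrp2, megalin, a large endocytic receptor of that family found on absorbing epithelia, was at 14413 ± 311, which ranked 113.

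2 transport genes stood among the 40 highest. Slc26a7, an anion exchanger and chloride channel of the SLC26 family, ranked 12 at 25059.9, 27850 and 27677, and its other probe set was at 1909. Slc44a2, a choline carrier-like protein, ranked 35 at 19916, 20299 and 21096, and the lowest of its 3 probe sets was at 337. All probe sets of both genes were above the floor, but the level depends on the probe set.

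The promoter windows of genes above and below the floor differed in the number of CG dinucleotides, at which DNA can be methylated. Windows of 250 bases before the annotated start were taken from RefSeq for GRCm38.p6, and 14452 of the 18193 genes matched by symbol. CG reads the same on both strands. At least 1 CG stood in 97.1% of all genes' windows, so the number per window is given, as a description with no test. The median was 6 for genes below the floor, 16 for genes above the floor with a mean below 1000, 17.5 for means from 1000 to 5000, and 17 for means of 5000 or more. Fewer than 10 CG were found in 64.3% of genes below the floor and 21.7% of genes at 5000 or more. The windows also differ in base composition, with a median of 53.2% G or C below the floor and 60.3% at 5000 or more. Among the 28 of the 40 highest genes that had a window, 10 had fewer than 10 CG, 35.7% against 40.3% of all genes.

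3 windows are shown because they belong to secreted proteins with high signals and span that range. Rnase1 has 1 CG in its window at chr14:51146768-51147017 on the minus strand. Otos, otospiralin, a secreted protein of cochlear fibrocytes whose fresh signal was 13242 ± 413, has 5 at chr1:92648842-92649091 on the minus strand. Coch, cochlin, the main extracellular matrix protein of the inner ear and a deafness gene, at 15914 ± 353, has 24 at chr12:51593091-51593340 on the plus strand. Each window reads 5′ to 3′ toward the start in lower case, with every CG in capitals.
Rnase1: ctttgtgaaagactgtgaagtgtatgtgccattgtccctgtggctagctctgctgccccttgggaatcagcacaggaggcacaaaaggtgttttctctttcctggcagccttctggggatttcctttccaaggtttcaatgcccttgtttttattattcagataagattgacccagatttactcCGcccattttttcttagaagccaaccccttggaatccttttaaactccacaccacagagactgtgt
Otos: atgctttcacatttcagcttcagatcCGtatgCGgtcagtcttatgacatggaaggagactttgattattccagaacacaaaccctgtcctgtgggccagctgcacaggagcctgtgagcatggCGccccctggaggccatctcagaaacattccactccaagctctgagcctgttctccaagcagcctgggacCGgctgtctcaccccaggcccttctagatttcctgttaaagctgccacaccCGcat
Coch: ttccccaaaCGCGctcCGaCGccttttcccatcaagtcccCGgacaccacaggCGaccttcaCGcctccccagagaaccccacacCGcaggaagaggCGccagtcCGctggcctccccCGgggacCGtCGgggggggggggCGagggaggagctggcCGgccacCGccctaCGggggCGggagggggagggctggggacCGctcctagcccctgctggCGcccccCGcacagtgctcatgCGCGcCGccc
All 3 genes had signals above 10000 on every array, so a high signal occurred here with few CG and with many.

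**Figure D1:**
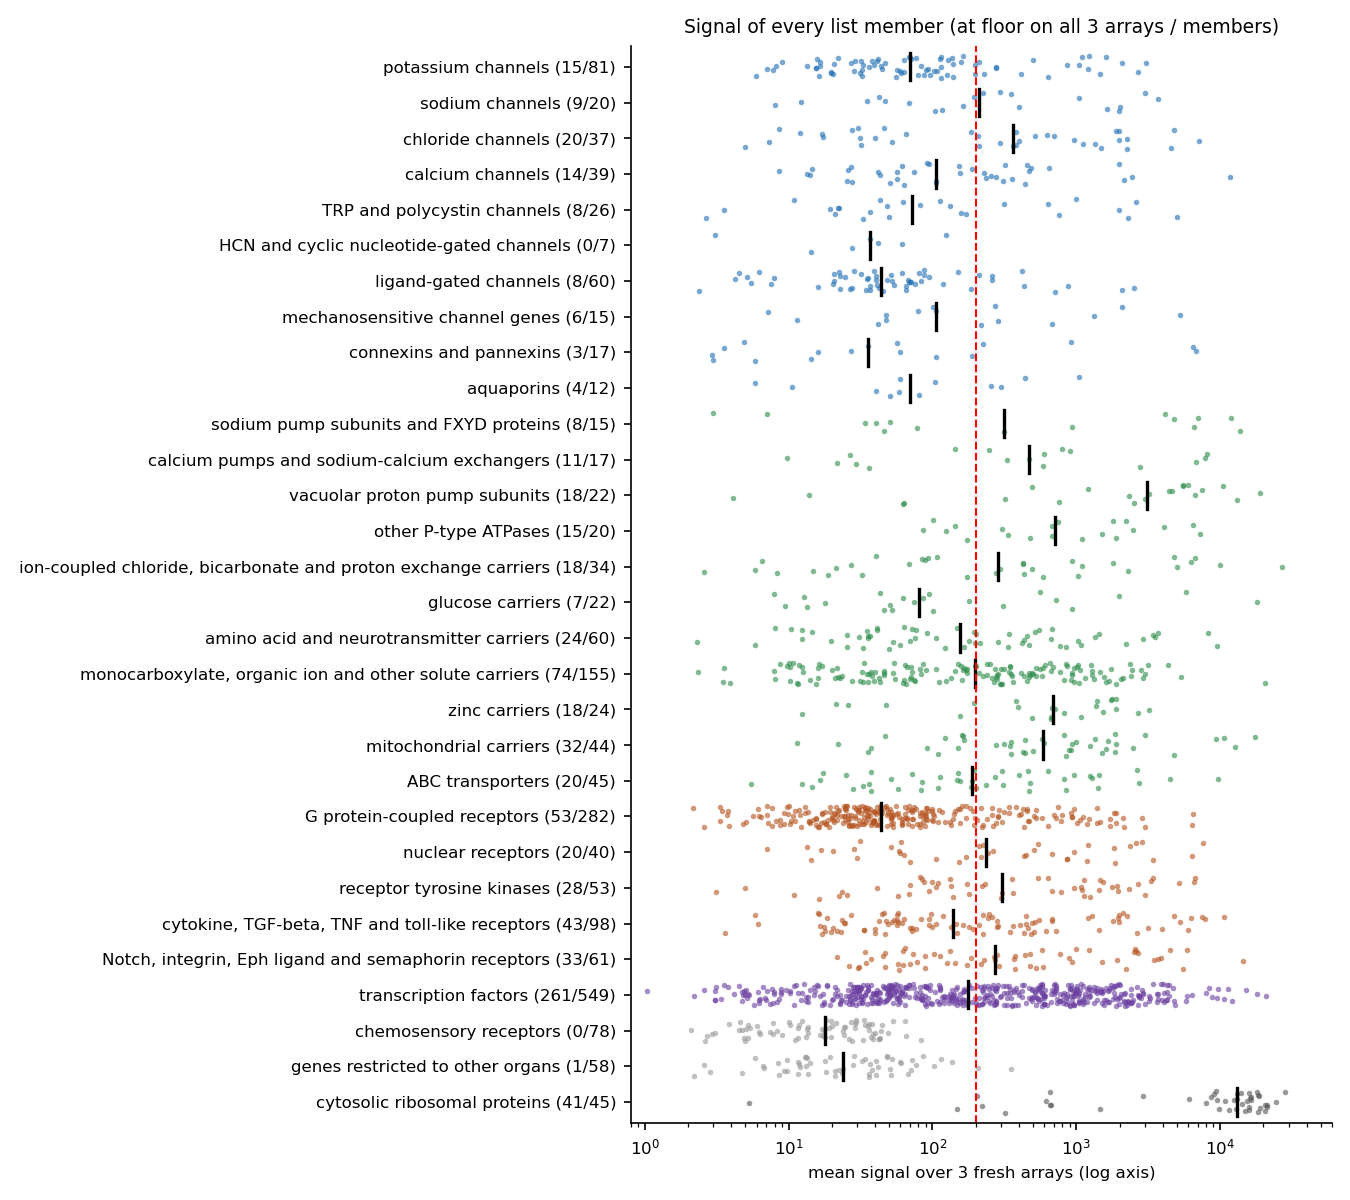
Each point is a gene, placed by its mean signal over the 3 fresh arrays on a log axis, in rows for the lists of channels (blue), transporters (green), receptors (brown), transcription factors (purple), reference lists (light grey) and ribosomal proteins (dark grey). Black bars mark list medians, the red dashed line marks the floor of 200, and numbers beside names give genes above the floor and members. The chemosensory receptors end at 83.3, while the median ribosomal protein gene lies at 13030.4.

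Channel genes were mostly below the floor. Of 314 channel and junction pore genes, 87 were above it, 16 were above it on 1 or 2 arrays, and the median signal was 69.8 against 274 over all genes. The share above the floor was 27.7%, against 52.8% of all genes, and 42 members reached 1000.

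All 3 subunits of the epithelial sodium channel were above the floor on every array. Scnn1b, the beta subunit, was at 3626, 3652 and 3777. Scnn1g, the gamma subunit, was at 2032, 1898 and 2074, and Scnn1a, the pore-forming alpha subunit, at 1825, 2059.7 and 2061. The array values of Scnn1g and Scnn1a overlap, and those of Scnn1b lie above both, which orders signals of different probe sets and not the transcripts. Sgk1, the steroid-induced kinase that raises ENaC at the cell surface, was at 8772, 8459.8 and 7823, rank 388. Of 20 sodium channel genes 9 were above the floor. Nalcn, the sodium leak channel, was at 3011 ± 96.3, and the acid-sensing channel Asic3 at 1625 ± 22.5. The accessory subunit Scn4b was at 1045 ± 41.2. The voltage-gated pore subunits Scn7a and Scn8a were at 399 ± 54.5 and 349.9 ± 76.9, and the median over the probe sets of Scn8a was 118.

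Of 81 potassium channel genes, 15 were above the floor, and none reached 5000. Kcne2, an accessory subunit of KCNQ1 and other channels, had the highest signal at 3026, 3008 and 3117. Kcnk2, the mechanically and lipid-gated tandem-pore channel TREK-1, was at 2813, 2693 and 2616. Another tandem-pore channel, Kcnk1, was at 2087 ± 115. The inward rectifiers followed, with Kcnj16 at 1656, 1544 and 1635, Kcnj13 at 1376, 1379 and 1640.3 and Kcnj10 at 1205, 1280.3 and 1116. These were the only ones of 15 inward rectifiers above the floor, and the next of them, Kcnj8, was at 115 ± 10.4. Kcnj10 is the potassium channel of strial intermediate cells that sets the endocochlear potential. Kcnq1 and Kcne1, which together form the apical potassium channel of strial marginal cells, were at 868 ± 14.7 and 277 ± 49.8. The neuronal channels Kcna1 and Kcnc1 were at 1237 ± 30.2 and 1105 ± 139.

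The chloride channel list had 20 of 37 members above the floor, or 54.1%, near the share of all genes. Ano6, a calcium-activated channel and lipid scramblase, was at 8018, 6448 and 7092, with the widest spread of the leading members. Clcn3 and Clcn4, chloride-proton exchangers of endosomes, were at 4753 ± 306 and 2267 ± 4.97. The intracellular channel proteins Clic4 and Clic1 were at 4578 ± 84.2 and 1889 ± 72.2. Lrrc8a, the obligatory subunit of the volume-regulated anion channel, was at 1969 ± 85.6, and its partners Lrrc8d and Lrrc8c at 2251 ± 65.7 and 1975 ± 167.

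Among calcium channel genes the highest signals came from a sensor and a pore of store-operated entry and from an auxiliary subunit. Stim2, the sensor of calcium in the endoplasmic reticulum, was at 11732, 12083 and 11471, and Orai1, the store-operated pore, at 2142 ± 86.4. The voltage-gated pore subunit Cacna1d was at 646 ± 43.7 on a shared probe set and at 55.8 on its other one, while the auxiliary subunit Cacna2d1 was at 2458 ± 28.3. Stim1 was at 486 ± 30.5 and the endoplasmic reticulum release channel Itpr3 at 466 ± 26.3. In all 14 of 39 genes of this list were above the floor.

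Of 26 TRP and polycystin genes 8 were above the floor. Mcoln3, an endosomal cation channel whose gain-of-function alleles cause deafness in varitint-waddler mice, was at 4944, 5157 and 5079. Trpm7, a magnesium-permeable channel with a kinase domain, was at 2609 ± 33.8. The calcium-activated cation channel Trpm4 was at 2302 ± 70.1 and Trpm3 at 1993 ± 94.2. Trpv4, opened by cell swelling and warmth, was at 765 ± 34.4. Piezo1, a mechanically opened cation channel, was at 5162, 5080.1 and 5453 and headed the 15 genes of mechanosensation, of which 6 were above the floor. Tmc4 was at 2067 ± 57.7, whereas Tmc1, a pore subunit of the hair cell transduction channel, was at 79.2 ± 47.0.

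Most ligand-gated channels were below the floor, 50 of 60. The ATP-gated channel P2rx2 was at 1940.3, 2090.1 and 2181 and P2rx4 at 883, 836 and 929, and they were the only P2X genes of 7 above the floor. For P2rx4 this rests on 1 of its 4 probe sets, the median over all of them was 99.2, and the lowest gave a mean of 66.2. Glrb, the beta subunit of glycine receptors, was at 2513 ± 187 and Glra3, a pore-forming glycine receptor subunit, at 709 ± 81.5. Among 15 GABA-A subunits Gabra6 alone was above the floor, at 435 ± 61.0, and among 15 nicotinic subunits Chrnb1 alone, at 259.7 ± 44.1. Of 7 hyperpolarisation-activated and cyclic nucleotide-gated channel genes 0 were above the floor, and the highest, Hcn2, was at 124 ± 21.6.

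Connexins form gap junction channels between cells. Gjb2 and Gjb6, the cochlear connexins 26 and 30 whose loss causes deafness, were at 6845, 6948 and 6777 and 6659.7, 6327 and 6348. Gja1, connexin 43, was at 917 ± 47.3, with 2 of its 6 probe sets above the floor and the lowest at 31.3. Without probe sets shared by several transcripts Gja1 was below the floor, at 177. These were the only genes above the floor among 17 connexins and pannexins. Among 12 aquaporins, the water channels, 4 were above the floor. Aqp1 was at 934, 1136 and 1083, Aqp4 at 439 ± 7.87, Aqp5 at 298 ± 51.3 and Aqp11 at 257 ± 46.4. The median over the probe sets of Aqp4 was 31.3, below the floor. Aqp2, the vasopressin-regulated channel of the kidney, was at 104 ± 18.5.

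**Figure D2:**
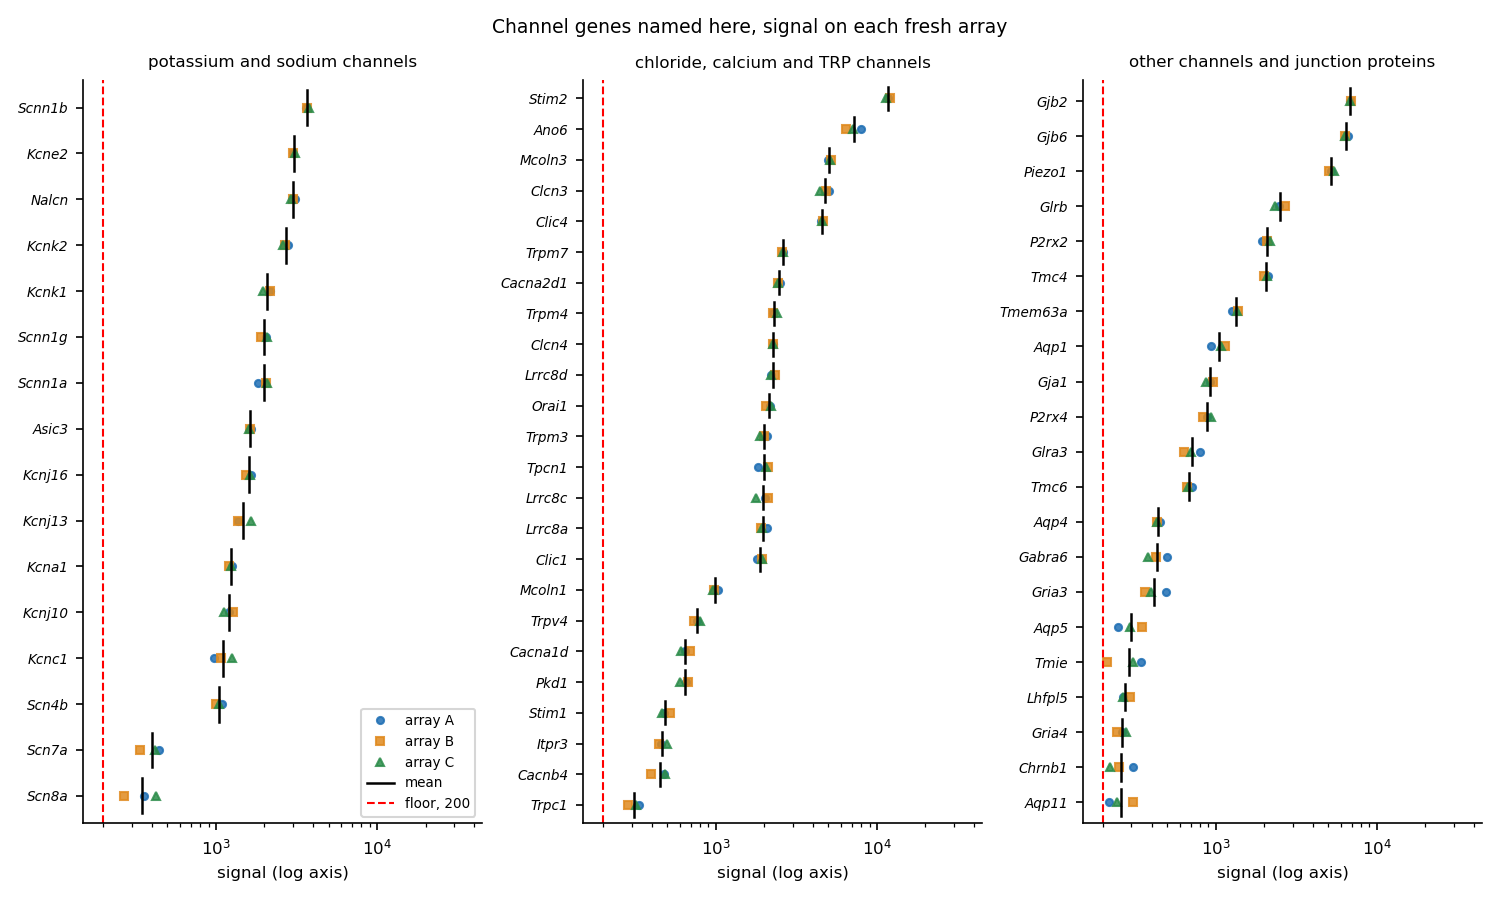
Signals of the named channel and junction genes above the floor are drawn for arrays A (circles), B (squares) and C (triangles), with the mean as a black bar, on log axes. The red dashed line is the floor of 200. Stim2, at a mean of 11762, and Ano6, at 7186, lie to the right in the middle panel, and Gjb2 and Gjb6 lead the right panel.

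Transporter genes were above the floor in 245 of 458 cases, 53.5%, close to the 52.8% of all genes. Their median was 291, and 118 reached 1000.

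The sodium pump drives absorption in epithelia, and 3 of its 4 beta subunit genes were above the floor. Atp1b1 was at 13500, 14058 and 14001, Atp1b2 at 11709.7, 11812 and 12441 and Atp1b3 at 5982, 6310.5 and 7569.8, while Atp1b4 was at 7.03 ± 6.64. Fxyd1, a regulator of the pump, was at 6707, 6933 and 7329. Other regulators of this family above the floor were Fxyd6 at 4767 ± 158, Fxyd3 at 4109.9 ± 178, Fxyd2 at 932 ± 70.6 and Fxyd5 at 313 ± 17.3. Of 15 pump and FXYD genes 8 were above the floor, 53.3% against 52.8% of all genes. All 8 are beta subunit or FXYD genes, which do not by themselves give the level of the whole pump.

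Calcium is exported by Atp2b1 and Atp2b2, plasma membrane calcium pumps, at 7965, 7922 and 8264 and 6763, 6918 and 6821. Atp2b2 is the pump whose loss causes deafness in deafwaddler mice. Atp2b3 was at 793 ± 66.6. Atp2a2, the pump of the endoplasmic reticulum, was at 7884 ± 148, and Atp2c1, the Golgi pump, at 2759 ± 105, with a median over its probe sets of 101.2, below the floor. The sodium-calcium exchanger Slc8a3 was at 901 ± 122.97.

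The vacuolar proton pump, which acidifies organelles and, in some epithelia, the lumen, had 18 of 22 subunit genes above the floor and 8 at 5000 or more. Its accessory protein Atp6ap2, also the prorenin receptor, was at 18804 ± 622. Atp6v1g1 was at 13149 ± 505, Atp6v1d at 10497 ± 415, Atp6v0e at 7461 ± 204 and the catalytic subunit Atp6v1a at 5561 ± 225. Among the other P-type pumps, 15 of 20 were above the floor. Atp13a5, listed here among strial marginal cell markers, was at 7304, 7021 and 7296, the lipid flippase Atp11a at 6484 ± 256 and the copper pump Atp7a at 2219 ± 266.

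The carriers of chloride, bicarbonate and protons had means from 2.57 to that of Slc26a7, and 18 of 34 were above the floor, 52.9% against 52.8% of all genes. Slc26a4, pendrin, the chloride-bicarbonate exchanger of endolymph-lining epithelia and a deafness gene, was at 6205, 6370.5 and 6227. Only 3 of 10 SLC26 genes were above the floor, the third being the sulfate carrier Slc26a2 at 1092 ± 20.0, and the next, Slc26a11, was at 108 ± 16.5. Slc12a2, the sodium-potassium-chloride cotransporter NKCC1, was at 9814, 9812 and 10379, and the potassium-chloride cotransporter Slc12a7 at 4706, 4712 and 4960.4. Slc4a11, a borate-transporter relative and deafness gene known from spiral ligament fibrocytes and corneal endothelium, was at 6643, 6606 and 6879. The anion exchanger Slc4a2 was at 5054 ± 336 and the sodium-bicarbonate carrier Slc4a10 at 2306 ± 107. Slc4a1, the anion exchanger of red blood cells, was at 1807 ± 70.9. Among the 7 sodium-proton exchangers of the SLC9 family, 4 of them above the floor, Slc9a2 had the highest signal, at 584 ± 64.4.

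Slc5a3, the sodium-coupled carrier of myo-inositol, an osmolyte, was at 18627, 18067 and 17884. The glucose carrier Slc2a1 was at 5636, 5912 and 5733, the proton-coupled inositol carrier Slc2a13 at 1982 ± 60.1, and the neuronal glucose carrier Slc2a3 at 564 ± 10.4, which was 22.0 without shared probe sets. Of 22 genes in the sugar carrier list 7 were above the floor.

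Amino acid carriers were led by Slc38a10 at 9522 ± 131 and the neutral amino acid carrier Slc38a2 at 8707, 8697 and 7369.6, and 24 of 60 were above the floor. The cationic amino acid carrier Slc7a1 was at 3691 ± 59.3, and Slc3a2, the shared heavy chain of several exchangers, at 2899 ± 87.9. The glutamate carrier Slc1a3 was at 1081 ± 108. Among the remaining solute carriers 74 of 155 were above the floor. All 4 choline carrier-like genes were, with Slc44a1 at 3003 ± 100.4, Slc44a3 at 2809 ± 54.5 and Slc44a4 at 282 ± 37.1 beside Slc44a2. The organic anion carrier Slco1a5 was at 5204, 5467 and 5316. The peptide carrier Slc15a2 was at 4339.6 ± 214 and the phosphate carrier Slc20a2 at 2901 ± 34.5.

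Zinc carriers were above the floor in 18 of 24 cases, led by Slc39a7 of the endoplasmic reticulum at 3225 ± 88.0 and Slc30a9 at 2687 ± 87.4. Mitochondrial carriers were above it in 32 of 44 cases, led by the phosphate carrier Slc25a3 at 17508 ± 596 and the ATP-ADP exchangers Slc25a4 at 12790.3 ± 429 and Slc25a5 at 9398 ± 212. ABC transporters were above it in 20 of 45 cases. Abcd3, a peroxisomal fatty acid carrier, was at 9638 ± 223, Abca3, a phospholipid carrier, at 4466 ± 195, and the cholesterol exporters Abca1 and Abcg1 at 2635 ± 66.2 and 1426 ± 56.9. The median over the probe sets of Abca1 was 41.8, below the floor.

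**Figure D3:**
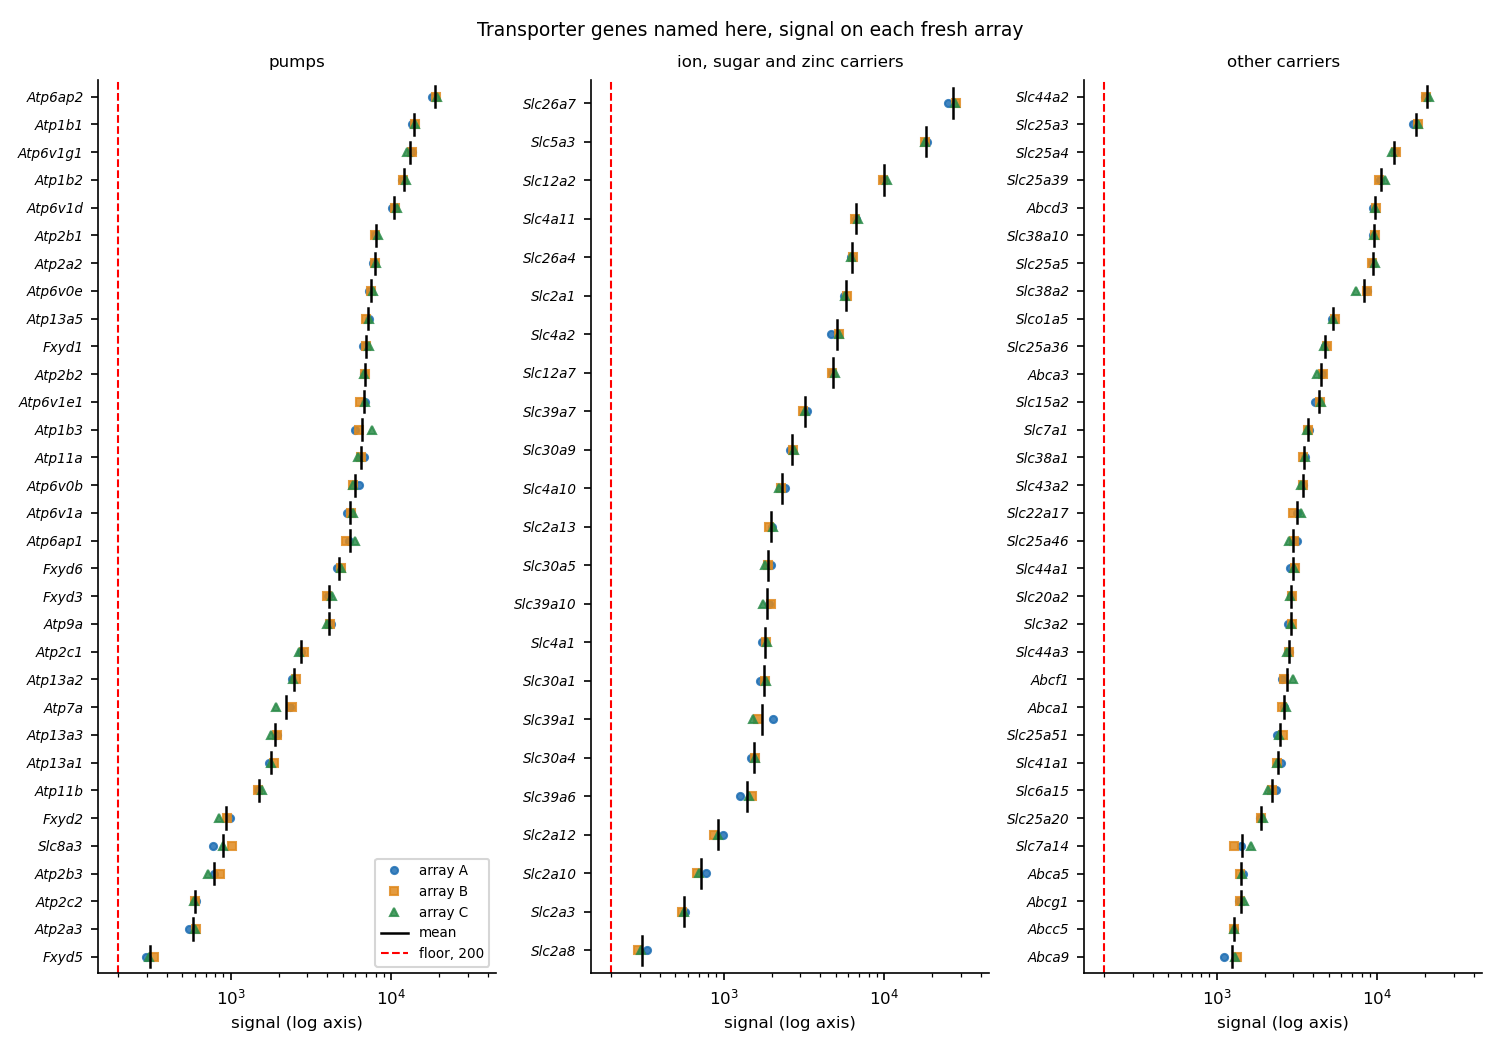
Signals of the named transporter genes above the floor are drawn for arrays A (circles), B (squares) and C (triangles), with the mean as a black bar, on log axes with the floor of 200 as a red dashed line. Slc26a7 at 26862 and Slc5a3 at 18193 head the middle panel, and most genes' 3 arrays lie so close that their symbols overlap.

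Receptor genes were above the floor in 177 of 534 cases, 33.1% against 52.8% of all genes, with a median of 80.2. G protein-coupled receptors made up 282 of them, with 53 above the floor and a median of 44.2.

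Among the G protein-coupled receptors the Wnt receptors of the frizzled family had 8 of 10 members above the floor. Fzd7 was at 6624, 6557 and 6417, Fzd6 at 2143 ± 223, Fzd2 at 1886 ± 84.7 and Fzd3 at 1475 ± 141. The median over the probe sets of Fzd6 was 48.2, below the floor. F2r, the thrombin receptor, was at 6468, 6284 and 6434. The orphan receptor Gprc5b was at 3028 ± 123.1, the R-spondin receptor Lgr4 at 2862 ± 68.8, the hedgehog signal transducer Smo at 2101 ± 9.43 and the lysophosphatidic acid receptor Lpar1 at 1888 ± 123.4. Of 9 P2Y nucleotide receptors only P2ry2 was above the floor, at 280.5, 236 and 258, and of 9 prostanoid receptors only Ptger4, at 329.6, 361 and 330.5. The prostaglandin D2 receptor Ptgdr was at 34.1 ± 19.4, beside the high signal of the synthase Ptgds given above. Of 21 chemokine receptors only Ackr3, a scavenging receptor of CXCL12, was above the floor, at 1401 ± 15.7.

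Nuclear receptors were above the floor in 20 of 40 cases, 50% and near the 52.8% of all genes. Nr3c2, the mineralocorticoid receptor, was at 1888, 1805 and 1840.4. Nr3c1, the glucocorticoid receptor, was at 1219, 1157 and 1166 on its highest probe set, with 3 of its 6 probe sets above the floor and the lowest at 27.4. Hsd11b1, the enzyme that regenerates active glucocorticoid, was at 395, 409 and 346. The clock repressor Nr1d2 had the highest signal of the list at 7406, 7884 and 7359.6, with the clock output factor Dbp at 10859, 10879 and 10429. Nr2f1, a developmental orphan receptor, was at 6395 ± 120.1 and its relative Nr2f2 at 2596 ± 65.4. The thyroid hormone receptor Thra was at 2881 ± 16.7, the retinoid X receptor Rxrb at 2354 ± 177 and Rora at 1863 ± 80.1.

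Receptor tyrosine kinases were above the floor in 28 of 53 cases, 52.8%, the same share as of all genes. Met, the hepatocyte growth factor receptor, was at 6804, 6351 and 7002. Ddr1, a collagen receptor, was at 6561 ± 524, with 3 of its 8 probe sets above the floor and a median over them of 168, and Epha7, an ephrin receptor, at 5207 ± 326. The platelet-derived growth factor receptor Pdgfra was at 3397 ± 103, the insulin-like growth factor receptor Igf1r at 3314 ± 95.2 and the fibroblast growth factor receptor Fgfr2 at 2685 ± 122, which was 166 without shared probe sets. The median over the probe sets of Pdgfra was 172, below the floor. Csf1r, the receptor that macrophages need, was at 2986 ± 91.4 and is itself 1 of the macrophage markers given below.

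Cytokine, TGF-beta, TNF and toll-like receptors were above the floor in 43 of 98 cases. The TGF-beta coreceptor Tgfbr3 was at 10718, 10552 and 10879.9, the signalling receptor Tgfbr2 at 6029 ± 42.6, and the bone morphogenetic protein receptors Bmpr2 and Bmpr1a at 6242 ± 54.7 and 5232 ± 409. For Tgfbr2 only 1 of its 3 probe sets was above the floor, and the median over all of them was 20.5. The growth hormone receptor Ghr was at 7732, 7829 and 7900.4. Il17re, the epithelial receptor of interleukin 17C, was at 7072, 7419.5 and 8054. Il6st, the shared signal chain of the interleukin 6 family, was at 4786 ± 38.6, and Lifr, which pairs with it, at 3926 ± 367, with a median over its probe sets of 77.9, below the floor. Of 11 toll-like receptors, Tlr3 at 1939.9 ± 71.0 and Tlr2 at 616 ± 12.7 were above the floor and Tlr4 was at 135 ± 19.5.

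Adhesion and guidance receptors were above the floor in 33 of 61 cases, 54.1% against 52.8% of all genes, Lrp2 among them. The integrin chains Itgav and Itgb5, which pair with each other, were at 5893 ± 822 and 5501 ± 372, and Itga8 was at 4457 ± 365. For Itgav this rests on 1 of its 5 probe sets, and the median over all of them was 24.7. Notch2 was at 3857 ± 193, the semaphorin receptor Plxnb2 at 3689 ± 31.2, the Slit receptor Robo1 at 3472 ± 80.8 and the Wnt coreceptor Lrp6 at 2698 ± 63.5.

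Transcription factors and related regulators were above the floor in 261 of 549 cases, 47.5%, somewhat under the share of all genes, and 14 reached 5000. Tsc22d1, a TGF-beta-stimulated leucine zipper protein, was at 19749, 20171 and 22382. Klf9, a zinc finger factor induced by glucocorticoid and thyroid hormone in many tissues, was at 17626, 18072 and 18664, with 4 of its 7 probe sets above the floor. Zbtb20 was at 14762, 14774 and 15729, with all 9 of its probe sets above the floor. Xbp1, the factor of the unfolded protein response, was at 12042 ± 403, and the chaperone Hspa5, one of that response's targets, ranked 38 at 20359.5 ± 84.5. All 4 nuclear factor I genes were above the floor, Nfix at 11270.1 ± 389, Nfia at 8847 ± 1106, Nfib at 3880 ± 231 and Nfic at 2892 ± 117. All 4 Id genes, which block basic helix-loop-helix factors, were above it, with Id4 highest at 9717 ± 593.

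Some factors known from inner ear development were above the floor and others were not. Otx2, a head patterning factor needed in the roof of the cochlear duct, was at 8328, 8187 and 8535. Sox10, a factor of the otic epithelium and of neural crest, was at 9219.5, 9888 and 9458, and Sox11 and Sox9 at 4249 ± 88.5 and 968 ± 40.4. Tbx18 and Pou3f4, factors of the periotic mesenchyme, were at 3699 ± 87.7 and 1356 ± 12.8, and Tbx2 and Tbx1 at 2701 ± 49.0 and 2415 ± 71.3. Of Sox genes 10 of 19 and of Tbx genes 4 of 13 were above the floor, 52.6% and 30.8% against 52.8% of all genes. Hmx2 was at 65.9 ± 16.8, Prox1 at 72.1 ± 10.6, Atoh1, which starts hair cell formation, at 50.1 ± 4.53 and Gfi1 at 106 ± 20.4, all below it on every array. The Iroquois factors Irx3, Irx5, Irx2 and Irx1 were at 4181 ± 505, 2716 ± 135, 1499 ± 61.8 and 949.6 ± 29.6. By contrast 0 of 33 Hox genes, which pattern the trunk and hindbrain, were above the floor, and the highest, Hoxa5, was at 113 ± 47.3.

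**Figure D4:**
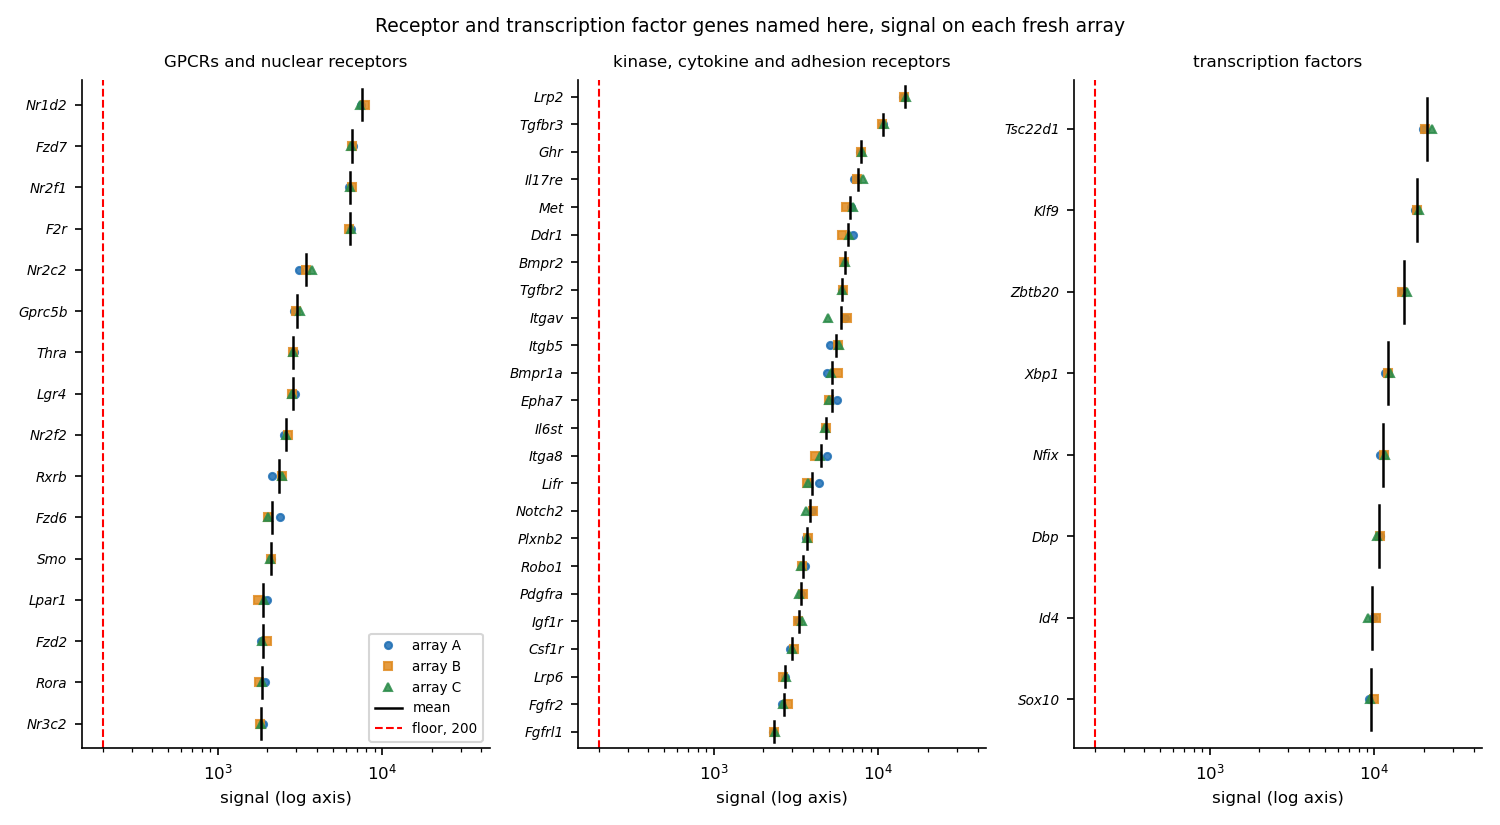
Signals of the named receptor and transcription factor genes above the floor are drawn for arrays A (circles), B (squares) and C (triangles), with the mean as a black bar, on log axes with the floor of 200 as a red dashed line. Tsc22d1 at 20767 and Klf9 at 18121 head the right panel, and Lrp2 at 14413 heads the middle one.

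Genes of the epithelial barrier and of the matrix were counted by list. Of 33 tight junction genes 23 were above the floor, 69.7% against 52.8% of all genes. Cldn9, a claudin needed to keep potassium out of the fluid around hair cells, was at 15312, 15393 and 16017, Tjp1, the scaffold ZO-1, at 9276 ± 357, and Cldn3, Cldn12 and Cldn8 at 7193 ± 333, 4389 ± 283 and 3106 ± 170.0. Cdh1, E-cadherin, was at 7284, 7500.3 and 7388. The keratins of simple epithelia, Krt18, Krt8 and Krt19, were at 5329 ± 214, 4026 ± 178 and 1769.9 ± 83.7, and they were 3 of the 5 above the floor among 48. Collagen genes were above the floor in 25 of 42 cases, 59.5%, with a median of 293 against 274 over all genes, and 8 reached 1000, where 26.3% of all genes did. Col8a1, a chain of a short-chain network collagen, was at 11802, 12388 and 12264. The basement membrane chain Col4a4 was at 2739.7 ± 37.6, and the laminin chain Lamb1 at 5659 ± 383. Of 100 genes of hereditary hearing loss 71 were above the floor, against 52.8% of all genes, and 14 reached 5000, against 4.71% of all genes. Among calcium-binding proteins, S100a1 was at 18233 ± 779.8 and the annexins Anxa1 and Anxa5 at 14884 ± 946 and 13802 ± 147.

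Markers of the labelled tissue were checked next. Of 17 epithelial markers 15 were above the floor on all 3 arrays and the other two, Krt7 at 231 ± 35.6 and Elf3 at 228 ± 73.5, on 2. Epcam, the general epithelial adhesion protein, was at 8837, 8850.5 and 9201, Esrp1, an epithelial splicing factor, at 3486 ± 37.6, and Spint1, an inhibitor of serine proteases, at 3255 ± 6.09. For the layer facing perilymph, the list holds fibroblast and mesothelial markers, with members on either side of the floor. Besides Dcn, the collagen chain Col1a2 was at 4981 ± 161 and the proteoglycan Lum at 1835 ± 17.9, while the matrix proteins Postn at 202 ± 39.9 and Dpt at 158 ± 5.76 were not above the floor. The collagen chain Col1a1 was at 296 ± 71.6 and Fbln1 at 341 ± 33.0, with medians over their probe sets of 155 and 73.8, below the floor. Pdpn and Gpm6a, which mesothelium shares with other tissues, were at 1266 ± 87.8 and 2842 ± 74.8, whereas Msln was at 45.1 ± 10.7, Wt1 at 19.4 ± 12.4, Upk3b at 6.97 ± 1.38, Lrrn4 at 15.6 ± 15.0 and Muc16 at 56.2 ± 14.3. Upk1b was at 207 ± 41.7, above the floor on 1 array. In all 10 of 18 of that list were above the floor, 55.6% against 52.8% of all genes. In a bulk sample fewer cells of a type and less RNA per cell cannot be told apart, and a high signal does not say which cells held the RNA.

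Markers of neighbouring tissue were also measured. All 14 fibrocyte markers were above the floor, with a median of 6541 and summed signals of 111374 to 114147 per array. The list holds Slc12a2, Slc4a11, Kcnk1, Aqp1, Tbx18 and Pou3f4, given above, so the sum does not measure neighbouring tissue alone. Besides Coch and Otos, Car3 was at 19230.5 ± 434, S100b at 14752 ± 411 and Otor at 2635 ± 68.0. Strial marginal markers were above the floor in 7 of 10 cases, 70% against 52.8% of all genes. The highest of that list were Lrp2, Atp1b2 and Atp13a5, given above. The barttin gene Bsnd, needed by marginal cell chloride channels, was at 52.1 ± 14.5. Intermediate cell or melanocyte markers were above the floor in 4 of 12 cases. These were Met and Kcnj10, given above, Dct at 900.5 ± 70.0 and Slc45a2 at 280 ± 24.5. The median over the probe sets of Slc45a2 was 176.5, below the floor. Tyr was at 96.9 ± 6.27, Tyrp1 at 48.1 ± 15.2 and Pmel at 55.4 ± 28.8. Strial basal cell markers were above it in 4 of 5 cases, with Cldn11 at 2789 ± 53.3. Such neighbours are also known to express Lrp2, Atp1b2, Atp13a5, Met, Kcnj10, Slc26a4, Slc12a2, Slc4a11, Gjb2 and Gjb6. The part of these neighbours in those levels was not tested.

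Hair cell markers were above the floor in 3 of 13 cases, Pvalb at 4206 ± 319, Otof at 639 ± 107 and Myo7a at 221 ± 13.9. The defining outer hair cell motor Slc26a5 was at 14.7 ± 16.0, Pou4f3 at 81.9 ± 14.0 and Chrna9 at 26.8 ± 20.3. Pvalb is also made by neurons and muscle. Supporting cell markers were above the floor in 8 of 12 cases, 66.7% against 52.8% of all genes. Epyc at 9909.9 ± 198, the connexin gene Gjb6 as given above and Otoa at 4507 ± 77.6 led them, while Tecta was at 27.8 ± 15.6. Neuron markers were above it in 14 of 16 cases, 87.5% against 52.8% of all genes. Calb2 was at 6917 ± 125, Nefl at 6474 ± 92.8 and Snap25 at 4641 ± 186, and the summed neuron signal was 28383 to 29463 per array. Tubb3 was lower at 248 ± 20.2, and Prph at 227 ± 38.9 was above the floor on 2 arrays. Syn1 at 163 ± 49.3 was below it on every array. The medians over the probe sets of Map2, Rbfox3 and Syt1 were 173, 180 and 37.9, also below 200. Schwann cell or oligodendrocyte markers were above the floor in 7 of 11 cases, 63.6% against 52.8% of all genes. Mbp was at 6202 ± 66.7 and Mal at 7101 ± 157, while the myelin proteins Mag and Mog were at 82.7 ± 36.4 and 15.4 ± 8.3. Cldn19 was at 20.8 ± 13.0. The part of neurons and their sheath cells in the levels of Kcna1, Kcnc1, Glrb and Sox10 was not tested.

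Markers of blood and marrow cells were measured as well. Neutrophil or marrow precursor markers were above the floor in 9 of 10 cases, S100a8 at 6578 ± 646, S100a9 at 5708 ± 199 and Ngp at 3843 ± 285, with summed signals of 23179.8 to 24109.7 per array. Of 4 erythroid markers 2 were above it, Slc4a1 as given and Alas2, the red cell enzyme of haem synthesis, at 1154 ± 51.1. The probe set naming Hba-a1 alone was at 26.2 ± 19.9, but 3 probe sets shared by the alpha-globin genes had means of 26536, 25206 and 6278, and 1 shared by the beta-globin genes had 22153. Macrophage markers were above the floor in 8 of 16 cases, near the 52.8% of all genes. Lyz2 was at 1719 ± 45.9, while Cd68 was at 130.0 ± 20.2, Itgam at 34.4 ± 8.61 and Aif1 at 31.0 ± 7.21. Lymphocyte markers were above it in 1 of 9 cases. Endothelial markers were above it in 4 of 14 cases, Kdr at 1916 ± 125 and Emcn at 987 ± 28.0, while Pecam1 was at 8.27 ± 2.16 and Cdh5 at 58.7 ± 31.0. Pericyte or smooth muscle markers were above it in 6 of 11 cases, 54.5% and near the share of all genes. Pdgfrb was at 1787 ± 68.1, the smooth muscle actin Acta2 at 473 ± 36.6 and the muscle filament gene Des at 406 ± 55.2. The median over the probe sets of Acta2 was 18.9, below the floor. Other contractile genes, Myh11, Tagln and Cnn1, were at 37.0 ± 27.9, 94.2 ± 40.7 and 7.37 ± 4.12. Bone or cartilage markers were above the floor in 4 of 16 cases, the highest Col9a3 at 2041 ± 71.5. Skeletal muscle markers were above it in 6 of 10 cases, 60% against 52.8% of all genes. These were led by Pvalb, also counted as a hair cell marker, then Myh1 at 737 ± 48.7 and Acta1 at 322 ± 31.4. Myh4 at 153 ± 14.1, Tnni2 at 137 ± 10.2, Tnnt3 at 127 ± 26.9 and Actn3 at 85.7 ± 23.8 were below it on every array.

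**Figure D5:**
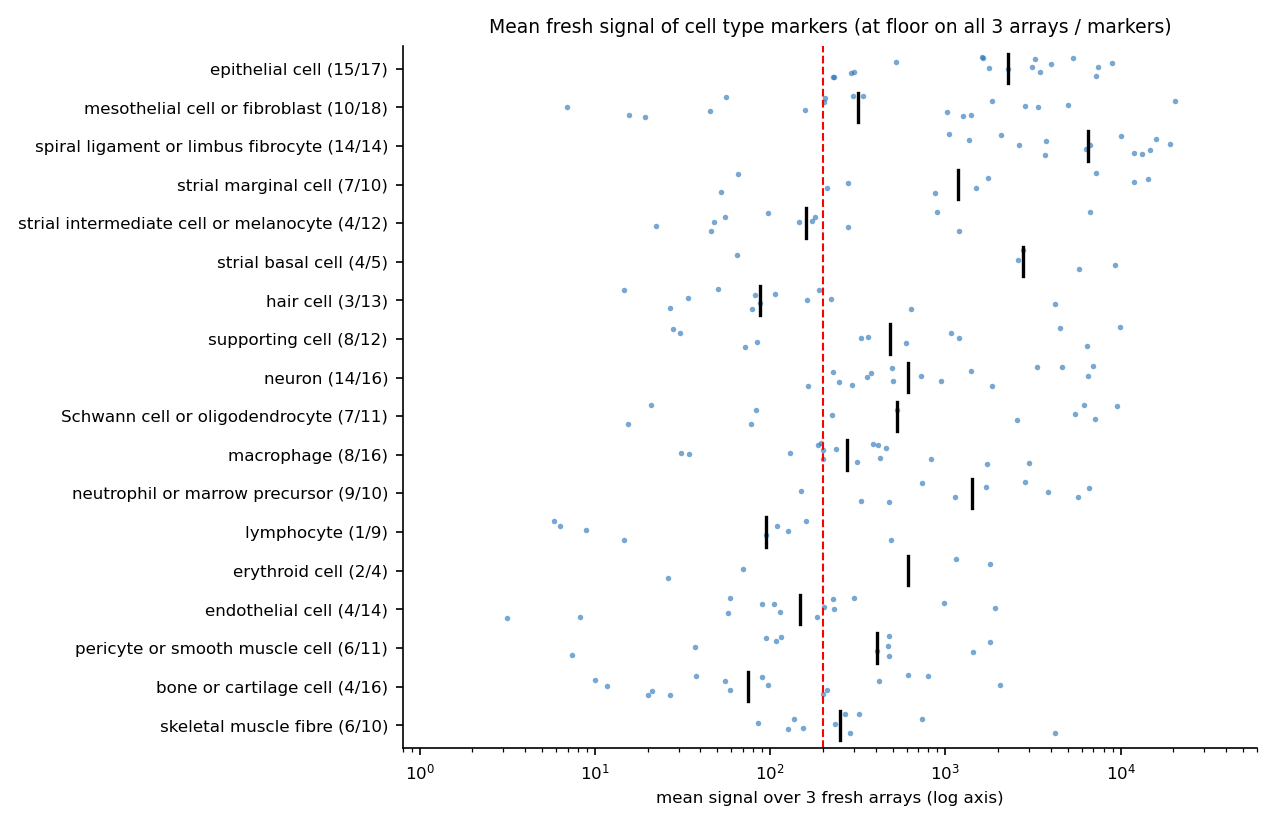
Each point is a marker gene, placed by its mean signal over the 3 fresh arrays on a log axis, with a row for each cell type, black bars for medians and the floor of 200 as a red dashed line. The epithelial row has its median at 2276 and the fibrocyte row at 6541, while the hair cell row has its median at 87.5.

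The spread between the 3 arrays was small where signals were high. For genes with means of 10000 or more the median SD was 0.05 on the log2 scale, for means from 200 to 500 it was 0.13, and for means below 50 it was 0.90. Among genes above the floor 154 (1.6%) had a highest signal more than 1.5 times the lowest. The widest was Lztr1, an adaptor of a ubiquitin ligase, at 3912, 2423 and 1625. Next to the floor among list members, Slc7a5 at 202 ± 20.4, Stat5a at 201 ± 6.45 and Abca13 at 201 ± 52.3 had means just above 200, and Slc41a3 at 199.8 ± 18.7, Kcnmb4 at 199 ± 11.7 and Slc43a3 at 198 ± 21.2 just below. None of these 6 was above the floor on all 3 arrays, so the side on which they fall is within the array spread.

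The choice of probe set moved levels. With the median over probe sets, the means of 274 of 529 named genes moved by more than their SD between arrays. Over all genes above the floor, 6304 had several probe sets, and 4681 of these (74.3%) had a probe set not above it. For a gene with 2 probe sets the median is their average, so 1 high probe set can keep the median above 200. Examples with only 1 of 2 above the floor were Abcd3, Apod, Atp1b2, Fzd7, Kcnk1, Lgr4, Met, Nr1d2, Slc4a11 and Tgfbr3. Of 406 named genes above the floor, 37 had a median over their probe sets below 200, and 14 were below 200 without probe sets shared by several transcripts. Among genes described above, the former included Abca1, Aqp4, Atp2c1, Col1a1, Ddr1, Fbln1, Fgfr2, Fzd6, Gja1 and Itgav. They also included Lifr, Map2, P2rx4, Pdgfra, Rbfox3, Scn8a, Slc2a3, Syt1 and Tgfbr2. A further 11 had shared probe sets alone, among them Actg1, F2r, Rps29 and S100a8. The level of Slc26a7 with its lower probe set was 1909, that of Cldn9 1773 and that of Ttr 6472, all above the floor, whereas the lowest probe sets of Klf9 and Tsc22d1 were at 39.1 and 14.8. The ENaC subunits, Kcnk2, Otx2, Coch, Otos and Sgk1 each had a lone named probe set, so no such check exists for them.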

How the data were processed

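RNA of pooled fresh membranes went through repeated in vitro transcription and onto 3 Affymetrix arrays, per the labels' protocols. Each deposited value was the linear signal intensity of a probe set, scaled by the authors to an array target of 500, per the labels. The mean trimmed by 2% at each end was 500 on all 3 arrays. Which software summarised the probes is not given in the sources used here. No detection calls were used. Of 45101 probe sets, 64 were controls, 34945 had 1 gene symbol in GEO's platform annotation, 932 several and 9160 none, which left 18193 genes. For 204 probe sets the symbol could not be checked against RefSeq.

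Levels were computed in pandas 2.3.3 (NumPy 2.4.6, under Python 3.11.15), and the counting was tested on simulated data. No groups were compared and no test was run, and precision is limited by the 3 arrays. The genes named were the 40 highest, up to 8 leading members of each list above the floor (all members of lists up to 12), all cell type markers, the 10 widest spreads, 3 list members on each side of the floor and 14 genes of steroid-regulated transport and the inner ear. Members and lists were chosen with earlier results of these data known. After the values were seen, 33 genes wrongly taken in by symbol patterns were left out, and families within lists, with their leading members, were picked. Alternatives were other floors, other probe set rules, other scalings and leaving out each array.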

Additional observations from a re-analysis of the deposited data

How the results depend on the processing

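No paired analysis was possible because no groups were compared. The rule that picks a probe set per gene was the choice that moved counts most. With the lowest probe set of each gene, 4930 genes were above the floor in place of 9609, with 16.2% of channels, 26.9% of transporters, 13.7% of receptors and 20.0% of transcription factors, and 16 of the 40 highest genes stayed among the 40 highest. With the median over probe sets 20 of the 40 stayed, and 26 did when probe sets with _s_at or _x_at names were dropped. Floors of 100 and 400 gave 11193 and 7640 genes. Leaving out each array in turn gave 9717 to 9731 genes above the floor, with 28.0% to 29.9% of channels, 53.7% to 54.1% of transporters, 33.3% to 34.5% of receptors and 47.9% to 48.1% of transcription factors, and 39 to 40 of the 40 highest. Quantile normalization, median centring and means of log2 signals moved 0 of the 529 named genes' means by more than the SD between arrays. For means of log2 signals this says little, because both kinds of mean lie between the lowest and highest array. With that setting 5 of the 529 means changed more than 1.5 fold. Keeping the genes wrongly taken in by symbol patterns, an alternative chosen after seeing the data, gave 27.8% of channels, 53.4% of transporters, 33.8% of receptors and 47.3% of transcription factors. The 3 arrays limit the precision, and signals under 50 varied most between them.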

Other observations

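Genes known from the epithelium of the choroid plexus, the tissue that secretes cerebrospinal fluid, were gathered after the values were seen, so the list is no independent evidence and has no test. Of 38 measured genes 28 were above the floor, 73.7% against 52.8% of all genes, and 6 reached 5000. Besides Ttr, Otx2, Kcnj13, Kcne2 and Slco1a5, given in the report, these included Sulf1, a sulfatase of heparan sulfate, at 15379.5, 16311 and 17066, and Calml4, a calmodulin-like protein, at 10846, 11239 and 10758. The carbonic anhydrases Car12 and Car14 were at 3939 ± 314 and 2266 ± 40.4, the growth factor binding protein Igfbp2 at 3799.6 ± 153, and the thyroid hormone carrier Slco1c1 at 1618 ± 36.3. The secreted antagonist Sostdc1 was at 1700.3 ± 39.1 and the chloride channel protein Clic6 at 1113 ± 58.8. Other genes that define the choroid plexus were low. The serotonin receptor Htr2c was at 39.3 ± 9.91, Cldn2 at 26.2 ± 16.2, Slc4a5 at 2.57 ± 2.45 and the factor Msx1 at 77.8 ± 29.4. Kl, klotho, was at 199 ± 13.8 and Folr1, the folate receptor, at 431 ± 42.8.

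Some strong signals carry no gene name in the annotation used. Of 10092 probe sets with no symbol or several, 1881 were above the floor on all 3 arrays and 117 had means of 10000 or more. The highest without any symbol gave 25913, 30136 and 29983 on arrays A, B and C, which would place it among the 10 highest genes.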
